A study of Mus musculus with 4 samples.

Results

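The 10 glutathione S-transferase genes Gsta4, Gstm1, Gstm2, Gstm5, Gstp1, Gstp2, Gstt1, Gstt2, Gsto1 and Mgst1 were taken by their symbols from the 24026 genes measured by RNAseq in F123-ESCs. F123-ESCs are one line of male mouse embryonic stem cells from a cross of a S129 (S129S4/SvJae) mother and a CAST father. Each autosomal gene is thus taken to have 1 copy of each strain, which was not checked here. The cells were untreated, were passaged at least 2 times without feeder cells on gelatin in medium with LIF and serum replacement, and were harvested after about 48 h. PolyA-selected RNA of 4 libraries, replicates 1 to 4, was sequenced with paired reads of 150 bp, and reads that cover a SNP were assigned to the S129 or the CAST allele. Each gene has therefore 8 values in RPKM (reads normalised to the length of the gene and to the total of reads), 1 for each allele in each library, and the alleles of a library come from the same cells. Nothing in the sources used here says that the 4 libraries were separate cultures, so p-values measure the spread between these libraries, which may be technical.

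Glutathione S-transferases join the thiol of glutathione to electrophilic compounds, such as drugs, carcinogens and products of lipid oxidation, and so prepare them for export. The soluble enzymes form classes named alpha, mu, pi, theta and omega, whose genes lie in clusters that arose by duplication, while microsomal enzymes such as that encoded by Mgst1 sit in membranes and belong to a separate family. Many of these genes are induced through NRF2, a transcription factor that is held in check by KEAP1.

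Whole reads could be recovered from the RPKM for 99.5% of the genes above 0 (tolerance of 0.02 read). The totals behind the RPKM were 16716721 to 28772351 reads per allele and library, with replicate 4 the shallowest on both alleles, and 1 read on a gene of 1000 bp was worth 0.0348 to 0.0598 RPKM. All 10 markers of pluripotent stem cells had at least 1 RPKM, with a median of 115 RPKM. Of 12 fibroblast markers, which feeder cells would carry, 9 had at least 1 RPKM, led by Acta2 (339.5 RPKM) and Col1a2 (166 RPKM), whereas Lum had 0.0462 RPKM and Dcn 0.659 RPKM. The summed level of the fibroblast markers was 538 to 651 RPKM. The part of such cells in the levels and allele differences of the glutathione S-transferase genes was not tested. Of 6 primitive endoderm markers 4 had at least 1 RPKM, with a summed level of 46.7 to 53.7 RPKM, most of it Dab2. None of 4 liver markers reached 1 RPKM (summed level 0.320 to 0.647 RPKM).

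In the mm10 build (GENCODE M21) all 10 are protein-coding genes on autosomes. The mu class genes lie together on chromosome 3, with Gstm5 (ENSMUSG00000004032) at chr3:107895821-107898686 on the plus strand, Gstm2 (ENSMUSG00000040562) at chr3:107981702-107986453 on the minus strand and Gstm1 (ENSMUSG00000058135) at chr3:108012255-108017973 on the minus strand. The pi class genes are neighbours, with Gstp1 (ENSMUSG00000060803) at chr19:4035407-4037985 on the minus strand and Gstp2 (ENSMUSG00000038155) at chr19:4040285-4046023 on the minus strand. The theta class genes are Gstt1 (ENSMUSG00000001663) at chr10:75783813-75798584 on the minus strand and Gstt2 (ENSMUSG00000033318) at chr10:75831114-75837424 on the minus strand. The others stand apart from these clusters, with Gsta4 (ENSMUSG00000032348) at chr9:78182774-78209349 on the plus strand, Gsto1 (ENSMUSG00000025068) at chr19:47854970-47864790 on the plus strand and Mgst1 (ENSMUSG00000008540) at chr6:138140316-138156755 on the plus strand.

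Gstp1 and Gstp2 encode nearly the same enzyme, and this limits what reads can tell about each. Their first 150 coding bases, taken from GENCODE M21 transcripts in the mm10 build, lie in 4 exons each, within chr19:4037186-4037863 for Gstp1 and chr19:4041480-4042165 for Gstp2, both on the minus strand. They are shown because capitals mark the 6 positions at which the genes differ.
Gstp1: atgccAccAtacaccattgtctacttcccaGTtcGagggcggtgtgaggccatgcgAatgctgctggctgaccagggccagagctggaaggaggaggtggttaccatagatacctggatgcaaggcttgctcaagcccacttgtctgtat
Gstp2: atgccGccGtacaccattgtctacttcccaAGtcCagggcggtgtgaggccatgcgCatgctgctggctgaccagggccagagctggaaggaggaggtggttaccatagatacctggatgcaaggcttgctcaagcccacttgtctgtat
Over their 630 coding bases both genes were 98.1% identical, with a shared run of 300 bases. Of all stretches of 150 bases in the first annotated transcript, 41.8% in Gstp1 and 49.4% in Gstp2 occur unchanged in each other or in the pseudogene Gstp-ps. At this length the other 8 genes share no stretch with any other gene, and at 75 bases Gstm1 shares 14.8% (with Gstm3, Gm8834 and Gstm2-ps1) and Gstm2 shares 3.13% (with Gm12499). How reads of such stretches were assigned is not given in the sources used here, so the split between Gstp1 and Gstp2 is uncertain.

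Upstream sequences were read from RefSeq for GRCm38.p6 (mm10), which gave a window for 8 of the 10 genes. Gsta4 and Gstt2 had none, and for Gstm1 and Mgst1, which had 2 each, the window nearest to the GENCODE start was taken. The 250 bases before the start were searched on both strands for the TATA box (TATAAA), the CCAAT box, the AP-1 site (TGACTCA), the core of the antioxidant response element (TGACNNNGC), the octamer (ATGCAAAT) and the GC box (GGGCGG). No matches overlapped in the 8 windows. The CCAAT box occurred in 33.8% of all windows and the GC box in 32.7%. The AP-1 letters occurred in Gstp1, Gstp2 and Gstm5, and in 4.46% of all 32851 windows. The element core, in the letters searched, is one form of the site that NRF2 and its partners bind. It occurred in Gstm5 and Mgst1, and in 10.2% of all windows. Other forms of that site were not searched for, so its absence elsewhere is not shown. The TATA box (12.4% of all windows) and the octamer (1.60%) occurred in none of the 8. The AP-1 letters of Gstp1, 74 to 68 bases before its start, and of Gstp2, 89 to 83 bases before its start, lie within 30 bases that are the same in both genes, at chr19:4037968-4037997 and chr19:4042292-4042321 on the minus strand. Capitals mark the AP-1 letters as read on the strand of the gene.
Gstp1 upstream: ctccaacgtgtTGAGTCAgcatccggggcg
Gstp2 upstream: ctccaacgtgtTGAGTCAgcatccggggcg
Over the whole 250 bases the windows of Gstp1 and Gstp2 were 78.1% identical, whereas those of Gstm2 and Gstm5 were 46.5% identical. The upstream parts of Gstm2 and Gstm5 that lie outside annotated exons are shown because these genes, which belong to one cluster, differed between the alleles in opposite directions. They span chr3:107986454-107986670 on the minus strand and chr3:107895604-107895820 on the plus strand. Capitals mark 2 CCAAT boxes in Gstm2 and, in Gstm5, the AP-1 site, a GC box on the other strand and the element core.
Gstm2 upstream: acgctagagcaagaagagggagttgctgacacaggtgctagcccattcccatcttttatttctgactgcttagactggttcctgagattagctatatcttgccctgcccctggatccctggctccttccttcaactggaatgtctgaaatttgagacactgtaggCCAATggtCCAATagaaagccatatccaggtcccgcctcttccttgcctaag
Gstm5 upstream: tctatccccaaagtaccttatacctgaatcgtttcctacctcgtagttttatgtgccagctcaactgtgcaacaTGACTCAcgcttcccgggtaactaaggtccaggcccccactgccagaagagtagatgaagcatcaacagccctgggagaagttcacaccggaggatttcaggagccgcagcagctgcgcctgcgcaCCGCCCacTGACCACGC
These letters describe the reference sequence, and SNPs between S129 and CAST within them were not analysed here.

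F123-ESCs contained RNA of 9 of the 10 genes, at levels that spanned from a few RPKM to among the highest in the table. A level is here the mean of both alleles, in RPKM and so per length of gene, and is given as mean ± SD over the 4 libraries. Only reads that cover a SNP enter it, and the number of SNPs in each gene was not known here. Levels of different genes, their order and their shares are therefore uncertain as amounts of RNA. Gsta4, an alpha class enzyme that acts on the lipid oxidation product 4-hydroxynonenal, had 1370.3 ± 101 RPKM (SD, n = 4). Only 0.312% of all genes had more, and Gsta4 made up 58.9% of the summed level of the 10 genes. The pi class genes followed, with 403 ± 55.2 RPKM for Gstp2 and 302 ± 39.5 RPKM for Gstp1. Gsto1, an omega class enzyme that reduces dehydroascorbate and removes glutathione from proteins, had 119.7 ± 7.33 RPKM. The mu class genes had 82.3 ± 4.87 RPKM (Gstm2), 26.6 ± 0.616 RPKM (Gstm1) and 17.3 ± 2.98 RPKM (Gstm5). Lowest were the theta class genes Gstt2 with 3.34 ± 0.491 RPKM and Gstt1 with 2.25 ± 0.523 RPKM, still above the median of 0.975 RPKM over all genes. In this order the ranges over libraries overlapped between Gstt2 and Gstt1 but between no other neighbours. In bulk RNA, fewer cells that express a gene and less RNA per cell cannot be told apart.

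**Figure D1:**
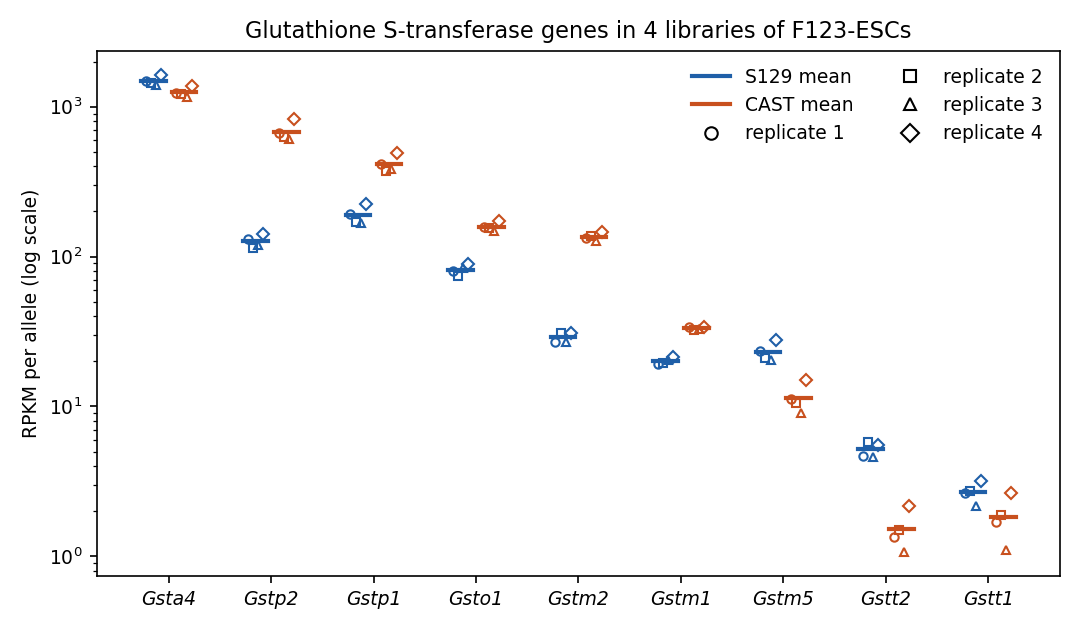
RPKM of each allele (log scale) for the 9 glutathione S-transferase genes above 0, in order of their level. Blue marks S129 and orange CAST, the symbols are the 4 libraries and the bars are their means. The alleles overlap in Gstt1 only, and replicate 4 (diamonds) is the highest for most of the columns. The share of all genes tested whose alleles overlap was not counted.

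Mgst1 was listed at 0 RPKM on both alleles in each of the 4 libraries. The nearest protein-coding genes with at least 1 RPKM over both alleles were far from it on chromosome 6. Dera, an enzyme of deoxyribose catabolism, lies 283 kb before it and had 174 RPKM. Plekha5 lies 2267 kb after it and had 5.65 RPKM. As expression was a condition of this choice, these values say nothing about Mgst1. A 0 in this table can be a failed estimate, since Rpl26, Rpl36a and Rpl39, 3 of 81 ribosomal protein genes, and Glo1, which encodes glyoxalase I, were also listed at 0 in all 8 columns. Mgst1 was therefore given no fold or test. It was the 1 member under the filter for the comparison of alleles, for which a gene needed at least 1 RPKM as the sum of both allele means. The filter left 13341 genes.

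The design pairs the S129 and the CAST allele in the same cells, and so asks which allele gives more RNA. Equal copy numbers of both alleles were not checked. All 9 glutathione S-transferase genes tested differed between the alleles at an adjusted p under 0.05 (limma on log2(RPKM + 0.1) with CAST subtracted from S129 library by library, Benjamini-Hochberg over 13341 genes). Of all genes tested 62.7% did, so a difference as such was common. Gsta4, Gstm5, Gstt1 and Gstt2 were higher on S129 (31.4% of all genes) and Gstm1, Gstm2, Gstp1, Gstp2 and Gsto1 were higher on CAST (31.3% of all genes). The difference was at least 2-fold in 5 of the 9, compared with 15.0% of all genes. The median size was 1.03 on the log2 scale for the 9 genes and 0.31 for all genes tested. In each of the 9 genes all 4 libraries had the same direction. How many of all genes tested did so, or had alleles whose values did not overlap, was not counted. Neither is therefore read as a trait of the 9 genes. When each column was rescaled to one autosomal sum, the median of all genes moved by 0.10 towards S129 and the calls over all genes changed from 4187 higher on S129 and 4182 on CAST to 5121 and 3072, while the 9 genes kept their directions and calls.

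Both pi class genes were higher on CAST, and Gstp2 had the largest difference of the 9 genes. In replicates 1 to 4, Gstp2 had 130.0, 115, 119 and 142 RPKM on S129 and 665, 624, 606 and 824 RPKM on CAST. The lowest CAST value was thus far above the highest S129 value, and the difference was -2.42 on the log2 scale (SE 0.05, adjusted p = 1.07e-05), or 5.35-fold. Gstp1 had 194, 171, 168 and 226 RPKM on S129 and 415, 370, 384 and 488 RPKM on CAST. These values did not overlap either, and the difference was -1.13 (SE 0.03, adjusted p = 3.48e-05), or 2.19-fold. On CAST the RPKM of Gstp2 exceeded that of Gstp1 in 4 of 4 libraries, with a ratio of 1.64 ± 0.0559 (SD, n = 4). On S129 it was below that of Gstp1 in 4 of 4, with a ratio of 0.669 ± 0.0322. The size of a ratio between genes also depends on their numbers of SNPs, which were not known here. Only its change between the alleles is therefore read, and it restates the differences of both genes given above. The change also rests on how reads of stretches shared by both genes were assigned, which is not given in the sources used here. The ratio differed between the alleles in the same direction in every library, which gave the smallest p that an exact two-sided sign-flip test over 4 libraries can reach (p = 0.125). Together both genes had 316 ± 38.4 RPKM on S129 and 1094 ± 151 RPKM on CAST.

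Most genes around the pi genes had smaller differences. Within 5 Mb the 164 other protein-coding genes tested had a median difference of -0.09, and Gstp2 lay below all 164 and Gstp1 below 160 of them. After the median of the neighbours was subtracted in each library, Gstp2 was at -2.33 (SE 0.06, adjusted p = 5.63e-05) and Gstp1 at -1.04 (SE 0.04, adjusted p = 0.000113). On either side, Ndufv1, a subunit of mitochondrial complex I, had 0.08 (adjusted p = 0.0768) and Cdk2ap2 had -0.35 (adjusted p = 0.00113), also higher on CAST. Gstp3, the next gene of this class, which was looked at after its values were seen, had 9.84 RPKM and a difference of -0.62 (adjusted p = 0.000471). The reads behind Gstp2 were 1897 to 14269 and those behind Gstp1 2971 to 8753 per allele and library, counted for the shortest gene length that the values allow.

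The mu class genes lie side by side on chromosome 3 and differed in both directions. Gstm2 had 26.9, 31.0, 27.1 and 30.8 RPKM on S129 and 133, 138, 127 and 145 RPKM on CAST in replicates 1 to 4. It was higher on CAST in every library, by -2.23 on the log2 scale (SE 0.04, adjusted p = 8.10e-06) or 4.68-fold. Gstm5, on the contrary, had 23.5, 21.1, 20.3 and 27.9 RPKM on S129 and 11.2, 10.5, 9.05 and 15.1 RPKM on CAST. Its S129 values were all above its CAST values, by 1.03 (SE 0.06, adjusted p = 0.000205) or 2.04-fold. Gstm1 had 19.1, 19.6, 20.3 and 21.3 RPKM on S129 and 33.7, 32.4, 33.1 and 33.6 RPKM on CAST. The alleles of Gstm1 were also apart, by -0.72 (SE 0.04, adjusted p = 0.000212) or 1.65-fold in favour of CAST.

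The same differences can be given as ratios between the mu class genes on each allele. As for the pi genes, SNP numbers were not known, so only the change of a ratio between the alleles is read. The ratio of Gstm2 to Gstm5 in RPKM was 12.1 ± 1.88 on CAST and 1.26 ± 0.172 on S129 (SD, n = 4). The ratio of Gstm2 to Gstm1 was 4.09 ± 0.234 on CAST and 1.44 ± 0.107 on S129. That of Gstm5 to Gstm1 was 1.15 ± 0.143 on S129 but 0.345 ± 0.0736 on CAST. Each of these ratios differed in the same direction in 4 of 4 libraries (exact two-sided sign-flip test, p = 0.125, the smallest possible with 4 libraries). These changes restate the differences of the single genes and are no further evidence. Of the other mu class genes in the cluster, which were chosen after their values were seen, Gstm4 was higher on CAST (-0.58, adjusted p = 0.0014). Gstm3 (0.53, adjusted p = 0.0538) and Gstm7 (0.18, adjusted p = 0.502) did not pass the test. Gstm3 lay close to the threshold: it passed without replicate 1, where its difference fell to 0.33 (adjusted p = 0.0301), and under several other settings such as a pseudocount of 1 (adjusted p = 0.0379) or no pairing of the alleles (adjusted p = 0.022).

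The surroundings of the mu genes were themselves higher on CAST, as were other parts of chromosome 3. The 57 other protein-coding genes within 5 Mb of Gstm2 had a median difference of -0.85 on the log2 scale, with quartiles of -0.95 and -0.63. Ahcyl1, the nearest on one side, had -1.05 (adjusted p = 0.000564) and Ampd2, an AMP deaminase on the other, had -0.87 (adjusted p = 0.000366). When the median of the neighbours was subtracted in each library, 57.4% of 13336 genes differed between the alleles (limma, adjusted p under 0.05), 29.4% upwards and 28.0% downwards. Relative to its neighbours Gstm2 remained lower on S129, by -1.37 (SE 0.04, adjusted p = 8.52e-05), and was below all 57 of them. Gstm5 was further up, by 1.88 (SE 0.06, adjusted p = 0.000104), and was above 55 of 57. Gstm1 turned its sign and was 0.13 above its neighbours (SE 0.04, adjusted p = 0.0361), a call that was lost when any one of the 4 libraries was left out (adjusted p = 0.0653, 0.120, 0.126 and 0.0863 without replicates 1 to 4). The difference of Gstm1 was hence close to that of the region around it and of chromosome 3. With the chromosome median subtracted it was 9.19e-05 (limma adjusted p = 0.999). Other genes on this chromosome, looked at after their values were seen, had neighbours with medians of -0.98 (Slc7a11), -0.71 (Gstcd) and -0.65 (Gclm). The cause of this shift, including copy number, was not tested. Gstm3 (1.38, adjusted p = 0.00358), Gstm7 (1.04, adjusted p = 0.0163) and Gstm4 (0.26, adjusted p = 0.0334) also lay above their neighbours.

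**Figure D2:**
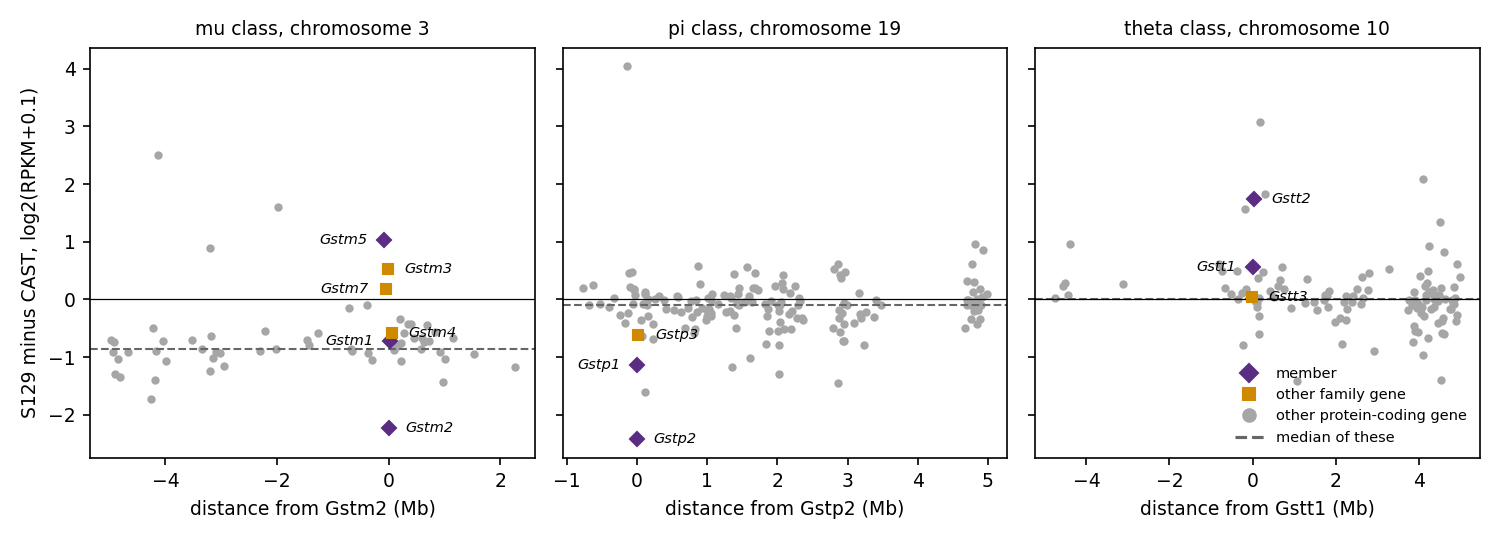
Difference S129 minus CAST on the log2(RPKM + 0.1) scale (vertical) against the distance in Mb from Gstm2, Gstp2 or Gstt1 (horizontal). Purple diamonds are the glutathione S-transferase genes described, orange squares other genes of the family, grey points the other protein-coding genes tested within 5 Mb, and the dashed line is the median of these. Around the mu cluster the dashed line is at -0.85 and Gstm2 and Gstm5 lie on opposite sides of it, whereas around the pi and theta clusters the line is close to 0.

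The theta class genes were higher on S129, at low levels. Gstt2 had 4.66, 5.81, 4.61 and 5.56 RPKM on S129 and 1.35, 1.50, 1.07 and 2.15 RPKM on CAST in replicates 1 to 4. The alleles did not overlap, and differed by 1.73 on the log2 scale (SE 0.13, adjusted p = 0.000497) or 3.33-fold. Gstt1, which can act on small halogenated compounds, had 2.65, 2.70, 2.16 and 3.16 RPKM on S129 and 1.70, 1.88, 1.10 and 2.65 RPKM on CAST. Here the ranges overlapped, although S129 was higher within each library, by 0.57 (SE 0.12, adjusted p = 0.0138) or 1.48-fold. This call rested on 27 to 79 reads per allele and library and was lost without replicate 1 (adjusted p = 0.0561). Without the pairing of alleles within a library it was lost as well (adjusted p = 0.0719). In RPKM, Gstt2 exceeded Gstt1 on S129 in 4 of 4 libraries (ratio 1.95 ± 0.22), and Gstt1 exceeded Gstt2 on CAST in 4 of 4 (ratio 0.844 ± 0.0852). The change of the ratio between the alleles, which restates the differences of both genes, gave an exact two-sided sign-flip p = 0.125 (n = 4), again the smallest possible. The size of each ratio is limited by unknown SNP numbers here too. Gstt2 was above 119 of 122 neighbours within 5 Mb and Gstt1 above 109 of 119, and relative to the medians of these they were at 1.72 (adjusted p = 0.000608) and 0.55 (adjusted p = 0.0155). The genes next to the theta cluster had almost equal alleles: Ddt, a tautomerase, had 0.03 (adjusted p = 0.504) and Mif, a related cytokine, had -0.03 (adjusted p = 0.556).

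Gsta4 and Gsto1 were the other abundant members. Gsta4 had 1492, 1448, 1388 and 1638 RPKM on S129 and 1239.6, 1209, 1163 and 1385 RPKM on CAST. The lowest S129 value was just above the highest CAST value. The difference was 0.26 (SE 0.03, adjusted p = 0.00192) or 1.19-fold, the smallest among the 9 genes. S129 gave 55.4% of the assigned Gsta4 reads (95% Clopper-Pearson interval 55.2 to 55.6%, counting error only), with 55.2 to 55.5% in single libraries. Relative to its 35 neighbours, Gsta4 had 0.21 (adjusted p = 0.00699) and was above 24 of them. Its difference of 0.26 lay within the quartiles of these neighbours (-0.18 and 0.40). The nearest gene on one side, the pluripotency gene Dppa5a at 7111 RPKM, had a larger difference of 0.42 (adjusted p = 0.000543), while Fbxo9 on the other side had -0.16 (adjusted p = 0.065).

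Gsto1 had 80.2, 73.9, 83.5 and 88.6 RPKM on S129 and 157, 154, 148 and 172 RPKM on CAST. Every CAST value was above every S129 value. The difference was -0.95 (SE 0.05, adjusted p = 0.000177) or 1.94-fold. It was below 58 of 59 neighbours, and relative to their median it was at -0.83 (adjusted p = 0.000464). Sfr1, which lies 119 kb before it, was also higher on CAST (-0.52, adjusted p = 0.000364), whereas Xpnpep1 had 0.00475 (adjusted p = 0.92) but lies 5067 kb away. The adjacent Gsto2, which was looked at after its values were seen, had 1.25 RPKM and -0.68 (adjusted p = 0.0221, or -0.40 with a pseudocount of 1), a call that was lost without replicate 2, 3 or 4 (adjusted p = 0.0793, 0.0798 and 0.0737). Gsto1 lies within Cfap43, which is on the opposite strand at 2.72 RPKM, and Gstm5 overlaps the antisense gene 4933431E20Rik (2.03 RPKM) by 393 bp. Whether reads were counted by strand is not given in the sources used here.

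**Figure D3:**
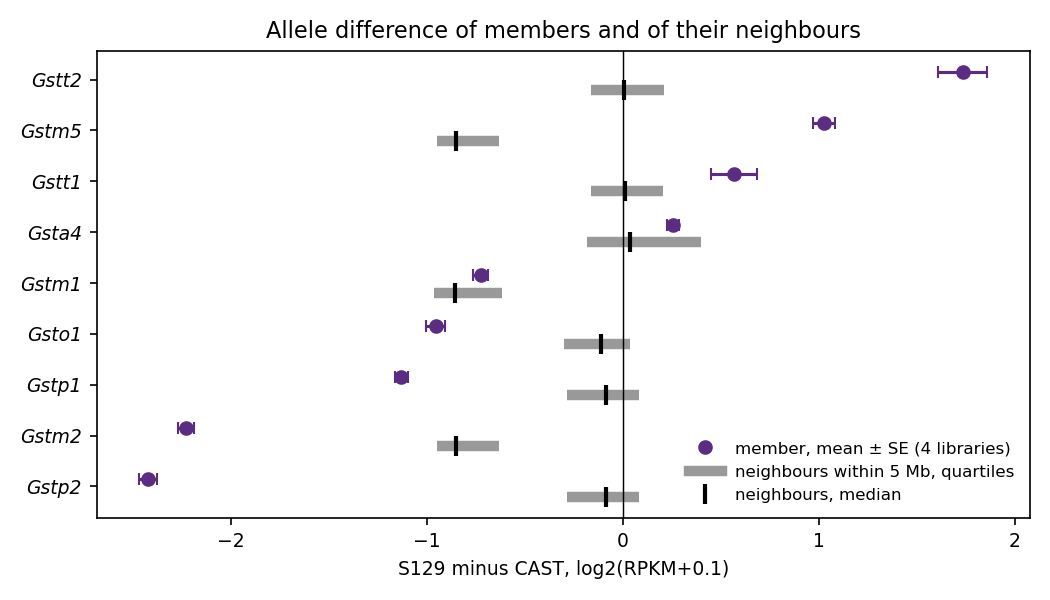
Difference S129 minus CAST on the log2(RPKM + 0.1) scale for the 9 genes tested (purple points, mean ± SE of 4 libraries) with the quartiles (grey bars) and medians (black ticks) of the protein-coding genes within 5 Mb. Gstp2 (-2.42) and Gstt2 (1.73) are at the ends, and the points of Gstm1 and Gsta4 lie within the bars of their neighbours.

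As a share of reads, S129 gave 16.3% of the assigned reads of Gstp2 (95% Clopper-Pearson interval 16.0 to 16.6%) and 18.1% of those of Gstm2 (17.5 to 18.7%). The shares were 32.2% for Gstp1 (31.8 to 32.7%), 34.9% for Gsto1 (34.3 to 35.5%) and 38.4% for Gstm1 (37.2 to 39.6%). They were 60.7% for Gstt1 (56.0 to 65.4%), 68.0% for Gstm5 (66.3 to 69.6%) and 78.4% for Gstt2 (76.2 to 80.5%). All intervals excluded equal shares. These reads were not divided by the totals, which were larger for S129 than for CAST in every library. The share of all genes tested whose interval excludes equal shares was not counted. Reads are not independent molecules, so the intervals cover counting error alone. In single libraries the share of Gstt1 ran from 55.3 to 67.1% and that of Gstp2 from 15.2 to 16.9%.

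Each of the 9 genes had its highest level, as the mean of both alleles, in replicate 4. Of all genes tested 17.3% did, and of the 4141 tested genes of at most 1500 bp, a length limit chosen after the values were seen, 35.3%. On the log2 scale replicate 4 was above the mean of the other libraries by 0.06 for Gstm1, 0.13 for Gstm2, 0.17 for Gsto1, 0.19 for Gsta4 and 0.28 for Gstt2. It was above it by 0.33 for Gstp1, 0.36 for Gstp2, 0.43 for Gstm5 and 0.51 for Gstt1. The median was 0.28 for the 9 genes and -0.13 for all genes tested. Replicate 4 had the fewest reads, and the length used for the 9 genes was at most 1289 bp in all but Gstt2 (2254 bp). The fibroblast markers were not highest in replicate 4 (577 RPKM, against 538, 624 and 651 RPKM in replicates 1 to 3), nor were the neural markers (85.5 RPKM, against 91.7 to 107 RPKM). Of the pluripotency markers only Dppa5a was highest there (8159 RPKM, against 6225 to 7564 RPKM), while Esrrb, Nanog, Sox2, Tdgf1, Zfp42, Pou5f1 and Klf4 were lowest there, for example Nanog with 70.3 RPKM against 80.4 to 93.9 RPKM. The part of depth, gene length or cell state in this was not tested.

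**Figure D4:**
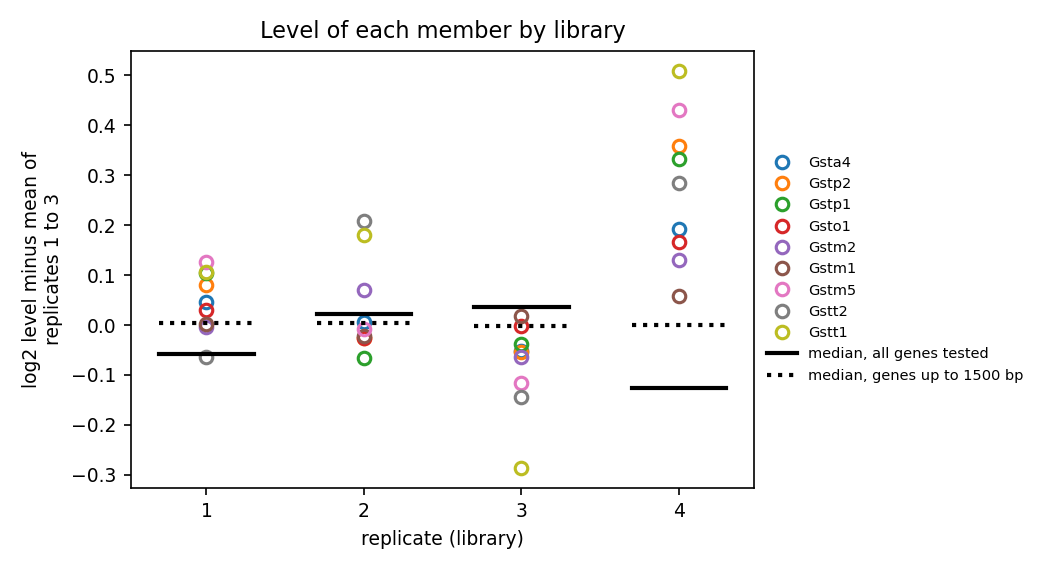
Level of each gene in each library, as the log2 difference from the mean of replicates 1 to 3 (circles), with the median of all genes tested (solid line) and of tested genes up to 1500 bp (dotted line). In replicate 4 all 9 circles are above 0, from 0.06 to 0.51, while the solid line is at -0.13.

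Other genes of the family were compared in the same fit. Of 20 listed, 18 were in the table and 13 passed the filter, of which 9 (69.2%) differed between the alleles, 1 higher on S129 and 8 on CAST. Of all genes tested 62.7% differed, 31.4% higher on S129 and 31.3% on CAST. The median difference of the 13 genes was -0.58 on the log2 scale and that of the 9 genes above, which went both ways, was -0.72, beside -0.0034 for all genes tested. After the median of the neighbours was subtracted these became -0.19 and 0.13, with the sign reversed for the 9 genes. Gsta3, another alpha class gene, was the 1 higher on S129, with 21.1 ± 1.91 against 3.57 ± 0.615 RPKM (2.54, SE 0.10, adjusted p = 7.90e-05). Mgst2, a microsomal enzyme that can make leukotriene C4, had 10.4 ± 1.47 RPKM on S129 and 86.7 ± 11.6 RPKM on CAST (-3.05, SE 0.15, adjusted p = 0.000156). The length behind its RPKM, 286 bp, was short beside the 3703 bp of its annotated exons, and its 28 neighbours within 5 Mb on chromosome 3 had a median of -0.93. Gstz1, which acts in tyrosine breakdown, had 45.1 ± 2.48 against 121 ± 4.47 RPKM (-1.42, SE 0.05, adjusted p = 4.99e-05). Mgst3, the second most abundant of these genes, had 50.2 ± 9.99 against 80.6 ± 16.7 RPKM (-0.68, SE 0.03, adjusted p = 0.000116).

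The rest of glutathione metabolism was followed through 4 lists with 52 genes, of which 47 were tested and 34 (72.3%) differed between the alleles, 21 higher on S129 and 13 on CAST, beside 62.7%, 31.4% and 31.3% of all genes tested. The median difference of the 47 genes was 0.09 and their median size 0.41 on the log2 scale. The counts of the single lists, each of a few genes, are to be read against the same shares of all genes. Of 14 genes of synthesis, uptake and turnover, 5 were higher on S129 and 4 on CAST. Ggt5, which cleaves the gamma-glutamyl bond of glutathione conjugates, had 1.88 against 0.579 RPKM (1.56, adjusted p = 0.000501, or 0.87 with a pseudocount of 1). Gsr, glutathione reductase, had 279 RPKM on S129 and 397 RPKM on CAST (-0.50, adjusted p = 0.000648), which shrank to -0.13 relative to its 27 neighbours (adjusted p = 0.0355). Lap3, a leucine aminopeptidase, had 231 and 169 RPKM (0.45, adjusted p = 0.000569). The RPKM of Gsr used a length of 347 bp, beside 2754 bp of annotated exons. Gsr and Lap3 were thus higher on different alleles, but the neighbours of Gsr had a median of -0.37 themselves.

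Of 15 peroxidases, glutaredoxins and glyoxalases, 5 were higher on S129 and 6 on CAST. Glrx3, a glutaredoxin that carries iron-sulfur clusters, had 100.3 RPKM on S129 and 432 RPKM on CAST (-2.11, adjusted p = 1.94e-05), and Gpx6, a peroxidase, had 4.21 and 1.11 RPKM (1.83, adjusted p = 0.00108). Esd, which hydrolyses S-formylglutathione, had 149 and 219.95 RPKM (-0.56, adjusted p = 0.000196). The named genes were thus split between the alleles. Of 12 genes of the NRF2 axis, 7 were higher on S129 and 2 on CAST (31.4% and 31.3% of all genes tested), none of them by 2-fold (15.0% of all genes). Hmox1, which degrades heme, had 134 and 178 RPKM (-0.41, adjusted p = 0.000577, or -0.23 relative to its neighbours), and Sqstm1, a partner of KEAP1, had 114 and 116 RPKM (-0.02, adjusted p = 0.648). Of 6 genes of conjugate export, 4 were higher on S129 and 1 on CAST, the latter being Abcc3 with 0.249 against 1.93 RPKM (-2.53, adjusted p = 0.000151, or -1.22 with a pseudocount of 1). Relative to neighbours 3 were higher on S129 and 2 on CAST (29.4% and 28.0% of all genes). Abcc1, looked at after its values were seen, turned from 0.33 to -0.49 (limma adjusted p = 0.00415), as its neighbours on chromosome 16 had a median of 0.81. Abcg2, an efflux pump, had 31.3 and 25.1 RPKM (0.30, adjusted p = 0.0415), and its call was lost without replicate 1, 2 or 3 (adjusted p = 0.122, 0.130 and 0.134) and relative to its neighbours (0.19, adjusted p = 0.108). The lengths behind the RPKM of Glrx3 (508 bp) and Abcg2 (464 bp) were also short beside their annotated exons (5016 and 8153 bp).

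**Figure D5:**
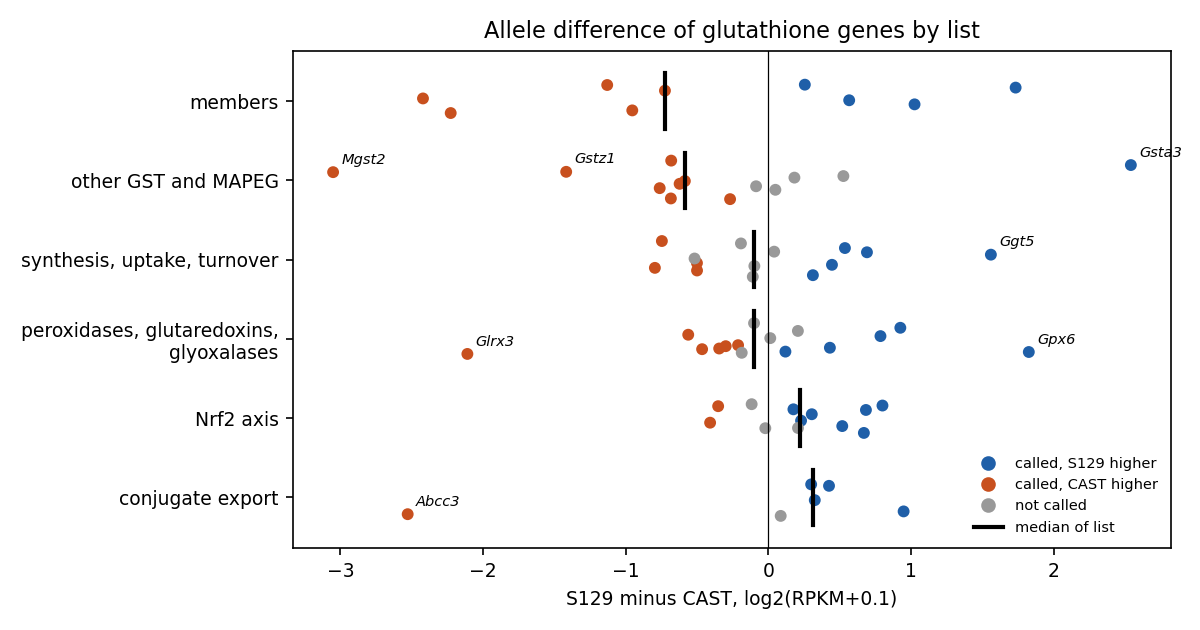
Difference S129 minus CAST on the log2(RPKM + 0.1) scale for each tested gene of the family and of 4 lists of glutathione metabolism (rows), with the median of each list as a black bar. Blue and orange points passed the test (adjusted p under 0.05) and grey points did not. The 9 members all carry colour and reach from -2.42 to 1.73, whereas the medians of the 4 metabolic lists lie between -0.10 and 0.31.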

How the data were processed

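RNAseq of untreated F123-ESCs was analysed in 4 libraries. The authors removed ribosomal RNA reads, trimmed with Trimmomatic 0.40, aligned with STAR to mm10 masked at SNPs and split reads by allele with SNPsplit. They deposited RPKM per gene, allele and library, their averages, and log10 of the average RPKM plus 1, of which the averages and log10 values were not used here. The read counter, annotation and strand setting are not given in the sources used here. No column belonged to another sample.

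Of 24026 genes, 23995 were matched to GENCODE M21. Reads and gene lengths were recovered from the steps of the RPKM. Lengths of Gstp1 and Gstp2 were found by search and are the smallest possible. Alleles were compared with limma 3.58.1 (R 4.3.3) on paired differences (S129 minus CAST) of log2(RPKM + 0.1) for genes whose allele means summed to 1 RPKM or more, a scale that understates changes of low genes. This pairing comes from both alleles being reads of one library. Over 13341 genes, the deviations of columns of the same number had correlations of 0.105 to 0.195, and those of different numbers -0.155 to 0.14, which overlaps. Neighbours were protein-coding genes outside the family within 5 Mb, and at least 5 were needed. Members and lists were chosen with earlier results of these data known. The text names all members, of other lists the genes with at least 2-fold called differences and the 2 with the highest levels, and the nearest protein-coding genes that passed the same filter of 1 RPKM over both alleles. One further gene that this rule names is not reported here. Alternatives were another pseudocount (1 or 0.01), no filter or 5 RPKM, rescaled columns, whole reads, a variance trend, subtraction of neighbours or of the chromosome median, no replicate block, other lengths and each library left out. Recovery and limma were tested on simulated data.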

Additional observations from a re-analysis of the deposited data

How the results depend on the processing

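Of 125 alternative values for the allele differences of the 9 genes, 121 had the same sign and the same call. The exceptions were Gstm1, which reversed to 0.13 with neighbours subtracted and to 9.19e-05 with the chromosome median subtracted (limma adjusted p = 0.999), and Gstt1, whose call was lost without the replicate block (0.57, adjusted p = 0.0719) and without replicate 1. Under all alternatives 3 to 5 of the genes were called higher on S129 and 4 or 5 on CAST (3 and 5 without the replicate block). Without the block, that is without the pairing of the alleles, the calls of no other of the 9 genes changed, and 15 of the pathway genes were called higher on S129 in place of 21. Whole reads not divided by the total moved the median of all genes by 0.06 on the log2 scale towards S129, and the 9 genes kept their directions.

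The count of other family genes higher on S129 moved from 1 to 2 with a pseudocount of 1, no filter, at least 5 RPKM, rescaled columns, whole reads, a variance trend or no replicate block, to 4 with neighbours and 3 with the chromosome median subtracted, and was 1 to 2 with single libraries left out. Gstm4 reversed to 0.26 with neighbours and 0.14 with the chromosome median subtracted. Sqstm1, not called, reversed to 0.082 (rescaled) and 0.034 (whole reads), and ranged from -0.042 to 0.00319 with single libraries left out, the latter without replicate 2. The causes were not tested. Relative to neighbours, leaving out single libraries, added after seeing the data, cost Gstt1 its call without replicate 1 (adjusted p = 0.0602) or 2 (0.0525). With the length of all annotated exons, the level of Gsta4 was 804 RPKM and that of Gstp2 279 RPKM, and the order of the genes was kept. Depth limits Gstt1 and Gstt2 the most, with as few as 27 and 57 reads per allele and library.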
